A study of Homo sapiens with 9 samples.

Results

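The 42 imprinted genes described here are named members of 20 imprinted loci, chosen by name and grouped by locus, and all 42 were found among the 23284 gene symbols of the files. For 22 of them textbooks give the paternal copy as the expressed one and for 13 the maternal copy, while for 7 the expressed copy varies with tissue or isoform. Paired-end RNA-Seq was run on HT-29, an established human colon cancer cell line. Cultures received the vehicle dimethyl sulfoxide alone (0 µM, the control), 5 µM 5-aza-deoxy-cytidine (5-Aza) or 10 µM 5-Aza for 5 days, with 3 separate cultures in each of the 3 groups. All 9 cultures were of this 1 cell line, so the spread between replicates is that between cultures of the line.

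Imprinted genes are expressed mainly or only from the copy inherited from 1 parent. The difference between the copies is laid down in the germ line as DNA methylation at imprinting control regions. It is kept through cell division by the maintenance methyltransferase DNMT1 together with UHRF1 and, at many loci in the early embryo, the zinc finger protein ZFP57. 5-Aza is a cytidine analog that is built into DNA and traps DNA methyltransferases, so that methylation is lost as the cells divide. An RNA level does not tell which parental copy was read, and in a bulk culture more expressing cells and more RNA per cell cannot be told apart.

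All values are labelled FPKM, fragments per kilobase of transcript scaled by a library term that is not given in the sources used here. They are used as relative values because the FPKM of a library summed to between 3690000000 and 5910000000. Differences are on the log2(FPKM + 1) scale unless stated, and a gene was called up or down at an adjusted p of at most 0.05 and more than a 2-fold difference. Since a value of exactly 0 may stand for an estimate that failed, a gene at 0 is only said to be listed at 0. The markers of colon epithelium were above 0 in all 9 samples (10 of 10 genes), and their summed FPKM lay between 90080000 and 108300000 in the control, between 37170000 and 41770000 at 5 µM and between 29360000 and 51690000 at 10 µM.

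Of the 42 genes, 13 were listed at 0 in all 3 control samples and 1, the ubiquitin protease gene USP29, was listed at 0 in all 9 samples. Another 22 were above 0 in all 9 samples. The control samples had 27, 26 and 27 imprinted genes above 0, the 5 µM samples 36, 38 and 39, and the 10 µM samples 29, 31 and 32. The 3 groups did not overlap in this number. The mean number was 11 higher at 5 µM than in the control and 4 higher at 10 µM, each with an exact two-sided permutation p of 0.1, the smallest that 3 samples against 3 allow. With a limit of 1000 FPKM in place of 0 the difference at 5 µM was 6.67. At 10 µM it was 3 (permutation p = 0.2), and with this limit the 10 µM and control samples overlapped. The share of all gene symbols above 0 moved in the same order, from between 70.3% and 72.8% in the control to between 80.6% and 81.4% at 5 µM and between 73.5% and 75.6% at 10 µM.

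The files hold no read totals per library, but low FPKM values stepped in whole fragments. The 46 values above 0 at 12 microRNA genes, each 110 nucleotides long, were multiples of 1 step per library within a tolerance of 0.01. The inverse of the step, relative to control replicate 1, was 1, 1.51 and 2.135 in the control libraries, 2.41, 2.29 and 2.57 at 5 µM and, at 10 µM, 1.27, 2.01 and 1.70. The 5 µM libraries thus had the finest steps, and the part of this in the number of genes above 0 was not tested. For 12 of the imprinted genes every value was a whole multiple of the gene's own step, within 0.05, and these multiples are given below as fragments. The true number can be a multiple of them, and they cover counting error only.

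**Figure D1:**
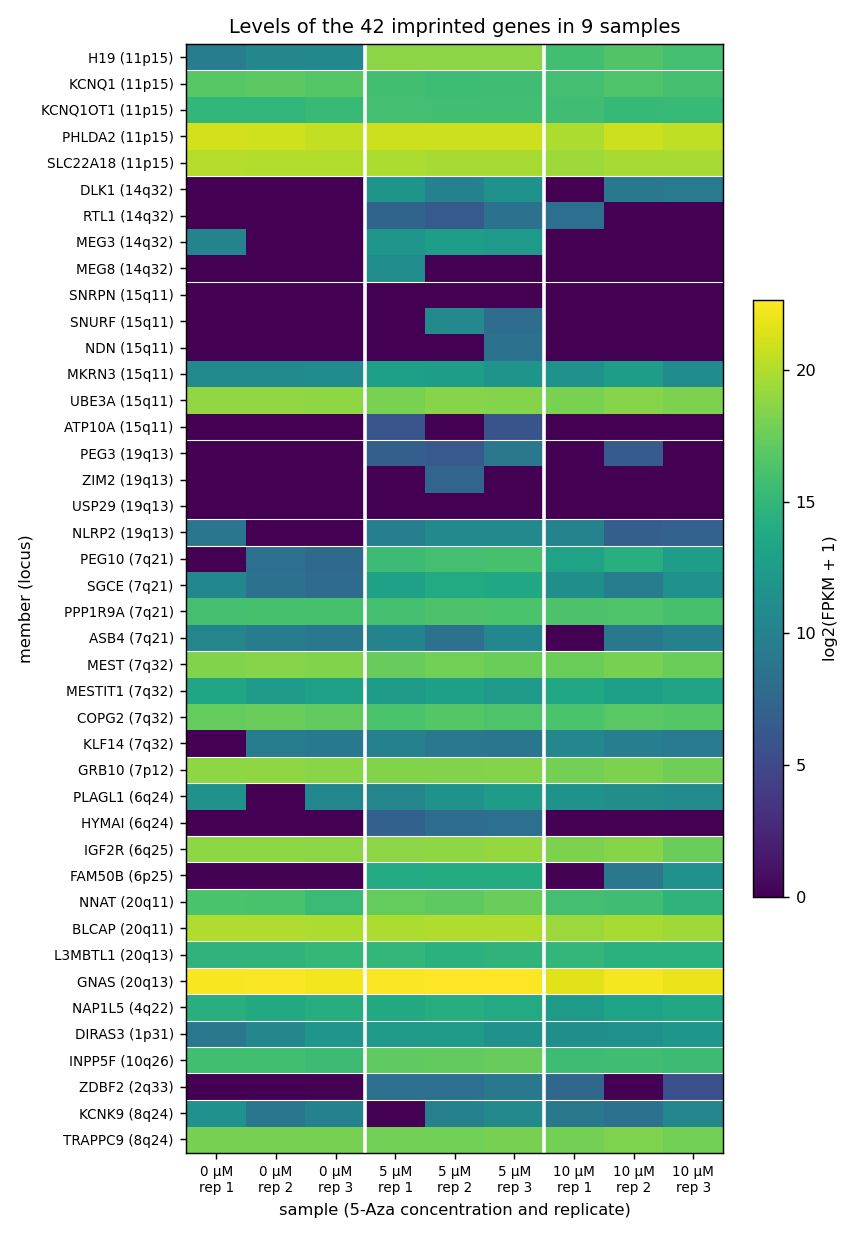
FPKM of the 42 imprinted genes (rows, grouped by locus) in the 9 samples (columns, by 5-Aza concentration and replicate), as log2(FPKM + 1) from dark (listed at 0) to yellow. Dark cells were most frequent in the 3 control columns, which had 26 or 27 genes above 0, against 36 to 39 in the 5 µM columns.

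Promoter sequences are shown first for the 5 genes of the promoter table that were called up at 5 µM with pseudocounts of both 1 and 1000, since the CpG dinucleotide is the site at which DNA methyltransferases act. Each window runs from 250 bases before to 50 bases after an annotated RefSeq transcription start (GRCh38.p14, 5′ to 3′ on the gene's strand), in lower case with every CpG in capitals, and it need not hold the imprinting control region of the locus.
H19 chr11:2001217-2001516 (-): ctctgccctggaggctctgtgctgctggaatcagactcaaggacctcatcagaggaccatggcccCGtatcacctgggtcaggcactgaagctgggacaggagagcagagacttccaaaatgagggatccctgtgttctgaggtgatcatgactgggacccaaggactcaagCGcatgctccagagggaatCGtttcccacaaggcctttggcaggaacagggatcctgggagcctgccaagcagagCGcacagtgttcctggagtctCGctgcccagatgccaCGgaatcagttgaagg
FAM50B chr6:3849123-3849422 (+): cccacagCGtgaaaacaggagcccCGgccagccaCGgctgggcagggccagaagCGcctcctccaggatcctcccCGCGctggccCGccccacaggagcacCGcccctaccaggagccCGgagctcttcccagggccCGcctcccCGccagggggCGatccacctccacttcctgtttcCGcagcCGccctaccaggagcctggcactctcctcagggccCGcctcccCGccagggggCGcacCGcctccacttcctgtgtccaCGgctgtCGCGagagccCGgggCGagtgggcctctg
MEG3 chr14:100825858-100826157 (+): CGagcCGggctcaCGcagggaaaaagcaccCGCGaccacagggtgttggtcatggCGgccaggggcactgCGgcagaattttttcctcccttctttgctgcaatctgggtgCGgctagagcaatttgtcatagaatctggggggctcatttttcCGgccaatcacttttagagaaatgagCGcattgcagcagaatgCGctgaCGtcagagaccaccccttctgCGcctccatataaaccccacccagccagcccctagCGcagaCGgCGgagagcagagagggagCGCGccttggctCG
MKRN3 chr15:23565424-23565723 (+): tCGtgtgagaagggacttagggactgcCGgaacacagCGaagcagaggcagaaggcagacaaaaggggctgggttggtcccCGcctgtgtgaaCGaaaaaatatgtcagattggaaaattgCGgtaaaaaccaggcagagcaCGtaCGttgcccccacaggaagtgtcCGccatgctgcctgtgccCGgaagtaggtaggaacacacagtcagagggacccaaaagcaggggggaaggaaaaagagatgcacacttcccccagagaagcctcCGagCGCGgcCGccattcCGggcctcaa
INPP5F first start chr10:119726246-119726545 (+): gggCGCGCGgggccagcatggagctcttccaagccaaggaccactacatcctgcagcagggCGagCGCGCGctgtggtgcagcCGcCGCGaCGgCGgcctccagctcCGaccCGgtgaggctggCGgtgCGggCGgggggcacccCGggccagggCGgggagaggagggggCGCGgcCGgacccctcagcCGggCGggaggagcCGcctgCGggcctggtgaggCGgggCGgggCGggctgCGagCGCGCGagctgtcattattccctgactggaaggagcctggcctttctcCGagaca
INPP5F internal start chr10:119819019-119819318 (+): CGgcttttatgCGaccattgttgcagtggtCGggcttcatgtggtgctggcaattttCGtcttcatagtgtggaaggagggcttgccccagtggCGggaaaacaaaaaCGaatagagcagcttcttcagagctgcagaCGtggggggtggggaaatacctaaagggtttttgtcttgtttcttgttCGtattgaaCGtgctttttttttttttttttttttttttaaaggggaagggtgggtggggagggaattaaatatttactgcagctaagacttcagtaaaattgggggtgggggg

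The H19 window held 6 CpG, and 66.3% of the 35116 windows of the table held as many or more. The FAM50B window held 23 CpG (35.8% held as many), the MEG3 window 19 (42.9%) and the MKRN3 window 15 (48.9%). The first start of INPP5F had 34 CpG (15.6%), whereas its internal start, which lies far downstream within the gene, had 9 (58.4%). The other 2 MEG3 windows, which overlap the one shown, had 17 and 18. Of the genes called up with the pseudocount of 1 alone, RTL1 had a window with 6 CpG, HYMAI 1 with 39, and ZDBF2 windows with 18 and 50.

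Of the 42 imprinted genes 29 were matched in the table, with 60 windows. The genes DLK1, KCNK9, KCNQ1, KCNQ1OT1, MEG8, NNAT, PEG10, PEG3, PHLDA2, SGCE, SLC22A18, TRAPPC9 and ZIM2 were not. The median number of CpG was 19 in the imprinted genes' windows, with a range of 2 to 50, and 14 over all windows. A GC content of at least 50% with an observed over expected CpG ratio of at least 0.6 was met by 58.3% of the imprinted genes' windows and by 46.9% of all windows. The hexamer TGCCGC on either strand, which ZFP57 is known to bind when it is methylated, occurred in 41.7% of the imprinted genes' windows and in 16.7% of all windows. Windows of 1 gene often overlap, and by gene, counting a match in any window, the shares were 58.6% and 19.5%. The 29 imprinted genes had 60 windows, against 35116 for the 27305 symbols with a window. An imprinted gene thus had on average more windows in which to match. PLAGL1 and HYMAI share a window with the hexamer, as do SNRPN and SNURF, and it was counted for both genes. The hexamer holds a CpG, and the shares were not adjusted for the number of CpG or of windows. Of the 6 windows shown, that of MEG3 held the hexamer, once. A match of these letters is a description and not a site.

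**Figure D2:**
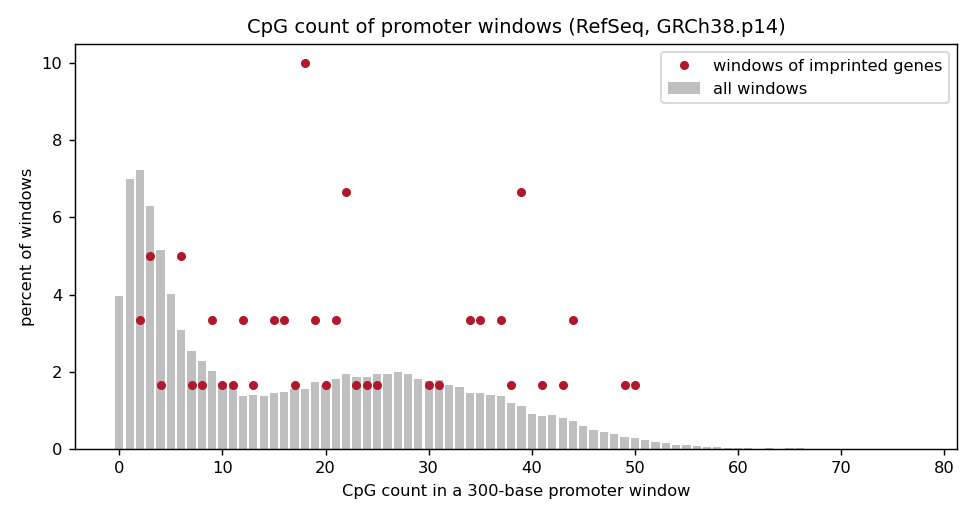
Number of CpG in a 300-base promoter window (horizontal axis) against the percent of windows with that number (vertical axis), for all 35116 windows (grey bars) and for the 60 windows of imprinted genes (red points). The red points spread from 2 to 50 CpG, with a median of 19, while the grey bars peak at low numbers.

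For 5 µM vs. 0 µM, which asks what the lower concentration changed, 40 of the 42 imprinted genes reached 10 FPKM in a sample and were tested. By limma with Benjamini-Hochberg adjustment over all 20051 genes tested, 13 were called up (32.5% of those tested) and 1 was called down (2.5%). Over all genes 14.1% were called up and 2.17% were called down. Of the 13 genes, 6 were listed at 0 in all 3 control samples and above 0 in all 3 samples at 5 µM, and their log2 differences depend on the added pseudocount. With a pseudocount of 1000, which gives small weight to values resting on few fragments, 10 imprinted genes were called up (12.6% of all genes) and 1 was called down (2.04%). The 3 samples at 5 µM lay wholly above the control samples for 15 imprinted genes and wholly below them for 6, against 29.4% and 23.2% of all genes.

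By expressed copy, 10 of the 20 paternally expressed genes tested were called up, 2 of the 13 maternally expressed genes and 1 of the 7 whose copy varies. The share of all genes called up was 14.1%. With the pseudocount of 1000 these counts were 6, 3 and 1, and the share of all genes was 12.6%. The difference between the copies was not tested. The median log2 difference was 1.52 over the 40 imprinted genes tested and 0.14 over all genes tested. Over the genes above 0 in all 6 samples it was 0.03 for the 23 imprinted genes and -0.04 for 15418 genes. The median over the members tested thus rested on genes listed at 0 in some sample.

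H19, a maternally expressed long noncoding RNA that is abundant in the fetus and low in most adult tissues, had the highest FPKM at 5 µM of the genes called up. Its gene (GRCh37 chromosome 11, from 2016396 to 2025782, minus strand) is annotated as a noncoding RNA, and its RefSeq promoter window is the CpG-poor one shown above. Its FPKM was 728, 1446 and 1534 in the control samples, 427705, 431309 and 438268 at 5 µM and, at 10 µM, 55553, 90422 and 59458. The 3 groups were far apart and none overlapped. The means were 1236 ± 442 (SD, n = 3), 432427 ± 5370 and 68478 ± 19105, a 349.9-fold difference between 5 µM and control. The log2 difference was 8.53 ± 0.295 (SE, adjusted p = 9.14e-05, limma). The control values rested on 2, 6 and 9 fragments and the 5 µM values on 2827, 2709 and 3099. Among the genes above 0, H19 stood at the 6.7th to 13.7th percentile in the control samples and at the 89th to 89.9th percentile at 5 µM.

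PEG10 and SGCE form a pair on chromosome 7q21 whose annotated starts lie 237 bases apart in opposite directions. PEG10 (7, from 94285637 to 94299007, plus strand) is a retrotransposon-derived gene needed for the placenta, and SGCE (7, from 94153516 to 94285884, minus strand) encodes epsilon-sarcoglycan, a membrane protein. The FPKM of PEG10 was 0, 317 and 224 in the control samples, 48593, 61291 and 69614 at 5 µM, and 8568, 18590 and 6189 at 10 µM. That of SGCE was 1538, 340 and 240 in the control, 8101, 14358 and 11757 at 5 µM, and 2421, 766 and 2712 at 10 µM. For both genes every 5 µM sample lay above every other sample. In the control SGCE rested on 3, 1 and 1 fragments, against 38, 64 and 59 at 5 µM. The log2 differences at 5 µM were 10.48 ± 2.18 for PEG10 (adjusted p = 0.0112, limma) and 4.47 ± 0.745 for SGCE (adjusted p = 0.00475, limma). With the pseudocount of 1000 they were 5.68 and 2.91. The PEG10 call was lost without 5 µM replicate 3 (adjusted p = 0.0533, limma).

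The neighbours of the pair in 7q21 gave other values. PPP1R9A, the gene of the actin-binding protein neurabin, lay between 64007 and 88478 FPKM over the 9 samples, with a log2 difference of 0.12 ± 0.109 at 5 µM (adjusted p = 0.401, limma). ASB4, a subunit of ubiquitin ligases, lay between 0 and 1548 FPKM, and its groups overlapped.

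At the chromosome 14q32 locus the paternally expressed DLK1 and RTL1 and the maternally expressed MEG3 were all called up at 5 µM. DLK1, a membrane protein related to Notch ligands, was listed at 0 in all 3 control samples and had 3453, 969 and 3228 FPKM at 5 µM, from 15, 4 and 15 fragments. At 10 µM it had 0, 551 and 651 FPKM, from at most 2 fragments. Its adjusted p at 5 µM was 0.000587 (limma), and 0.00445 with the pseudocount of 1000.

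MEG3, a long noncoding RNA, had 1106, 0 and 0 FPKM in the control, 3676, 6130 and 4942 at 5 µM, and was listed at 0 in all 3 samples at 10 µM. The 5 µM samples were the highest, and the values did not step in whole fragments. The log2 difference was 8.86 ± 2.77 (adjusted p = 0.0459, limma). The call was lost without control replicate 2 or 3 and without any 1 of the 5 µM replicates (adjusted p between 0.105 and 0.132), and with a pseudocount of 1000 the log2 difference was 2.19 ± 0.335 (adjusted p = 0.00218, limma). RTL1, a retrotransposon-derived gene, was listed at 0 in the control and rested on 2, 1 and 5 fragments at 5 µM (159, 83.8 and 372 FPKM). At 10 µM it had 301, 0 and 0 FPKM, and these samples overlapped with those at 5 µM. MEG8, which overlaps RTL1 on the opposite strand, was above 0 only in 5 µM replicate 1, at 2229 FPKM.

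FAM50B, an intronless paternally expressed gene on chromosome 6 (from 3849607 to 3851554, plus strand), went from listed at 0 in all 3 control samples to 14892, 15909 and 16029 FPKM at 5 µM. At 10 µM it had 0, 540 and 2871 FPKM. The 5 µM values rested on 66, 67 and 76 fragments, and those at 10 µM on 0, 2 and 9. Among the genes listed at 0 in all control samples it had the highest FPKM at 5 µM, and the call held with both pseudocounts (adjusted p = 0.000161 and 1.82e-05, limma). FAM50B is a copy of the X-linked gene FAM50A, and how reads shared by copies were assigned is not given in the sources used here.

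NNAT and INPP5F were above 0 in all untreated samples and were higher at 5 µM. Among the genes above 0 in the control samples, NNAT stood at the 42.6th to 49.5th percentile and INPP5F at the 43.5th to 44.5th. NNAT, a small membrane protein of the endoplasmic reticulum (20, from 36149608 to 36152092, plus strand), lies within BLCAP on the opposite strand. Its FPKM was 76813, 73010 and 44649 in the control, 161160, 136510 and 179554 at 5 µM, and 61649, 53875 and 26897 at 10 µM. Every 5 µM sample exceeded every other sample, while control and 10 µM overlapped. The 5 µM mean was 2.45-fold the control mean (log2 difference 1.33 ± 0.227, adjusted p = 0.00529, limma). BLCAP itself, with means of 1011210, 1000310 and 727834 FPKM in the 3 groups, had a log2 difference of -0.02 ± 0.0714 at 5 µM.

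INPP5F, a phosphoinositide phosphatase (10, from 121485554 to 121588659, plus strand), had 57050, 56563 and 47359 FPKM in the control. It had 141963, 153147 and 167027 at 5 µM, then 51353, 54841 and 48359 at 10 µM. The 5 µM samples stood alone and the other groups overlapped. The 5 µM mean was 2.87-fold the control mean (log2 difference 1.52 ± 0.108, adjusted p = 0.000305, limma). Only a short transcript from the internal start is known to be imprinted, and 1 FPKM per gene does not separate it from the full transcript of the first start.

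**Figure D3:**
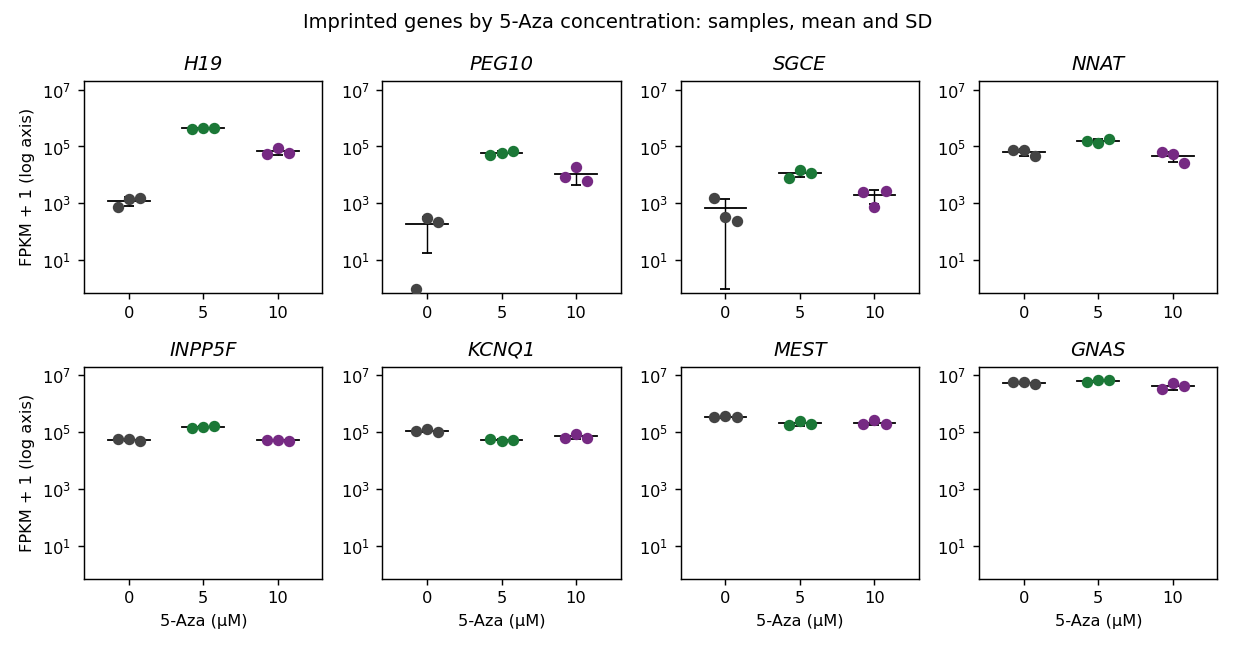
FPKM + 1 on a log axis against the 5-Aza concentration for 8 imprinted genes, with 1 point per sample, a horizontal line at the mean and a bar for the SD (n = 3). Bars that would reach below 0 FPKM end at 1. H19, PEG10, SGCE, NNAT and INPP5F are highest at 5 µM, KCNQ1 and MEST are highest at 0 µM, and GNAS stays within 3238230 and 6592190 FPKM.

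At the 15q11 locus the values were low apart from UBE3A. MKRN3, a paternally expressed ubiquitin ligase that acts on the timing of puberty, had 1830, 1818 and 1999 FPKM in the control, 7226, 6537 and 3437 at 5 µM and, at 10 µM, 3119, 6226 and 1971. The 5 µM samples lay above the control samples, and the 10 µM samples overlapped with both. Its log2 difference at 5 µM was 1.54 ± 0.377 (adjusted p = 0.0206, limma), from 6, 9 and 14 fragments in the control and 57, 49 and 29 at 5 µM. The call was lost without 5 µM replicate 1 or 2 (adjusted p = 0.069 and 0.0681, limma).

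SNRPN, the best known paternal transcript of the locus, was listed at 0 in 7 samples and did not exceed 0.00327 FPKM in the other 2, so it was not tested. Its upstream frame SNURF, which shares exons with it, was listed at 0 apart from 1601 and 266 FPKM in 5 µM replicates 2 and 3. SNURF lies within SNRPN on the same strand, with 22864 shared bases. How reads were divided between these entries is not given in the sources used here, so the SNRPN values alone do not show that it was silent. NDN had 352 FPKM in 5 µM replicate 3 alone, and ATP10A had 63.1 and 59.0 FPKM in 5 µM replicates 1 and 3. The ubiquitin ligase UBE3A fell within 2-fold, from 497385 ± 45335 (SD, n = 3) to 341835 ± 52791 FPKM at 5 µM (log2 difference -0.55 ± 0.133, adjusted p = 0.0197, limma).

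The remaining genes called up had low values. ZDBF2 had 10, 9 and 18 fragments at 5 µM (319, 302 and 537 FPKM), none in the control and 3, 0 and 1 at 10 µM. HYMAI, a noncoding transcript within PLAGL1 on the same strand, had 2, 4 and 5 fragments at 5 µM (133, 279 and 310 FPKM) and was listed at 0 in the other 6 samples. PEG3, a paternally expressed zinc finger gene, had 117, 81.7 and 508 FPKM at 5 µM and was listed at 0 in the control. At 10 µM PEG3 had 0, 93.0 and 7.15e-06 FPKM. ZDBF2, HYMAI, PEG3 and RTL1 were not called with the pseudocount of 1000. NLRP2, a maternally expressed gene of oocytes, rested on 2, 0 and 0 fragments in the control and 9, 16 and 18 at 5 µM. It missed the call at the pseudocount of 1 (adjusted p = 0.0575, limma) and was called at 1000 (log2 difference 1.04 ± 0.224, adjusted p = 0.00896, limma). Alternative fits at the pseudocount of 1 also called NLRP2. These were the filter of 10 FPKM in all 3 replicates of a group, the fit of all 9 samples and the fit without control replicate 1.

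**Figure D4:**
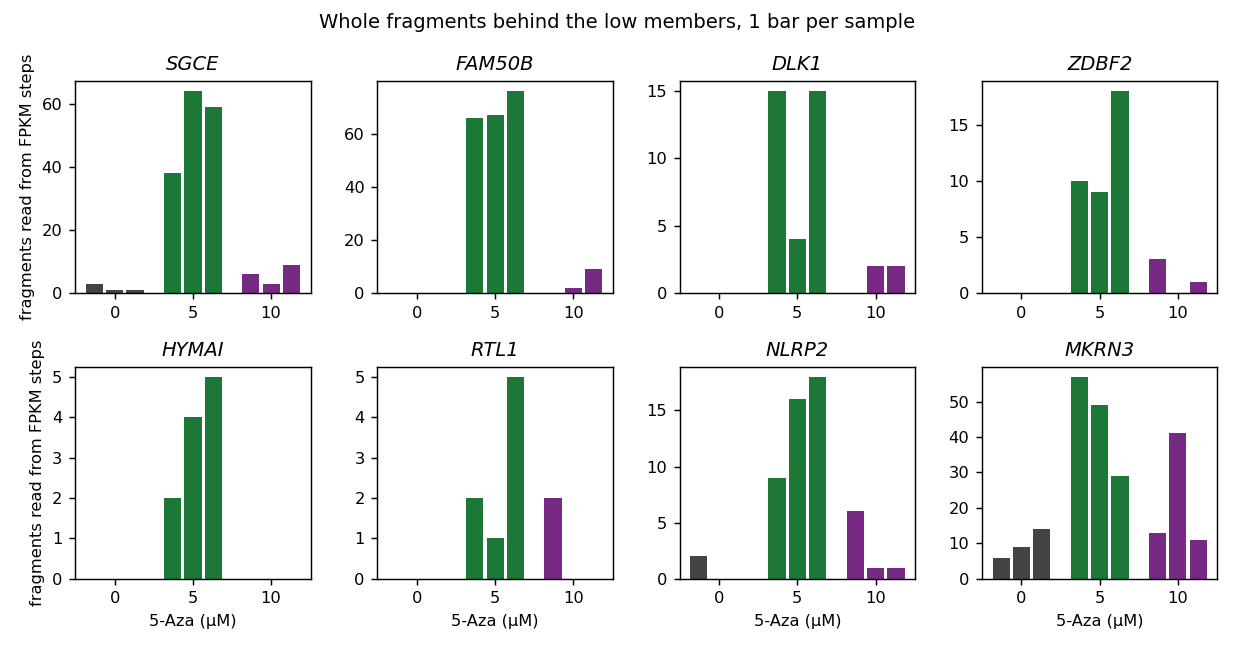
Fragments read from the FPKM steps for 8 lowly expressed imprinted genes, with 1 bar per sample at 0 (grey), 5 (green) and 10 µM (purple) 5-Aza and a vertical axis of its own for each gene. FAM50B rests on 66 to 76 fragments at 5 µM and HYMAI on 2 to 5. The bars are not scaled between libraries, and the 5 µM libraries had the finest steps.

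KCNQ1 was the imprinted gene called down at 5 µM. It encodes a voltage-gated potassium channel subunit of epithelia and heart and lies on chromosome 11 (from 2465884 to 2870335, plus strand). Its FPKM was 108895, 124313 and 104745 in the control, 57550, 48890 and 52404 at 5 µM, and 61309, 89412 and 64062 at 10 µM. Both treated groups lay below the control. The log2 difference at 5 µM was -1.09 ± 0.103 (adjusted p = 0.000679, limma).

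KCNQ1OT1 lies within KCNQ1 on the opposite strand and is the paternal noncoding RNA that silences its neighbours on that copy. It had 32223, 32505 and 41151 FPKM in the control and 60335, 55213 and 58405 at 5 µM, and the groups did not overlap. At 10 µM it had 52931, 36737 and 42776 FPKM. Its log2 difference at 5 µM was 0.72 ± 0.125, within 2-fold (adjusted p = 0.00535, limma). The library kit does not mark the strand, so reads of KCNQ1OT1 and of KCNQ1 introns cannot be told apart. Of the other genes in the domain, the growth-limiting PHLDA2 had means of 1980140 FPKM without 5-Aza, 2000330 at 5 µM and 1472740 at 10 µM (log2 difference 0.03 ± 0.149 at 5 µM). The transporter gene SLC22A18 had -0.34 ± 0.0744 (adjusted p = 0.0129, limma).

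At the MEST locus on 7q32, MEST and COPG2 were lower at both concentrations. MEST, a paternally expressed hydrolase-like gene, had 331076, 371767 and 332852 FPKM in the control, 174086, 239007 and 196462 at 5 µM, and 190827, 264210 and 192288 at 10 µM. Every treated sample lay below every control sample. Its log2 differences of -0.78 ± 0.126 and -0.69 ± 0.16 passed the adjusted p (0.00426 and 0.0319, limma) but not the 2-fold limit. COPG2, a coatomer subunit gene that meets MEST tail to tail, had -0.89 ± 0.139 and -0.70 ± 0.184 (adjusted p = 0.00372 and 0.0456, limma). Without 5 µM replicate 2 COPG2 was called down. The antisense transcript MESTIT1 lay between 4890 and 12080 FPKM with overlapping groups, and the transcription factor gene KLF14 rested on at most 4 fragments.

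In all, 16 imprinted genes of 11 loci were above 10000 FPKM in all 9 samples. At 5 µM 2 of these 16 were called up (NNAT and INPP5F) and 1 was called down (KCNQ1), against 14.1% and 2.17% of all genes tested. All genes tested include those listed at 0 in some samples. Of the 15418 genes above 0 in all 6 samples compared, 1690 were called up and 435 down. The share among all genes above 10000 FPKM was not computed. An adjusted p of at most 0.05 was reached by 9 of the 16, and the share of all genes at that limit was not computed. GNAS, which encodes the stimulatory G protein alpha subunit, was the highest imprinted gene, with means of 5502630 ± 474405 FPKM (SD, n = 3) in the control, 6343600 ± 426898 at the lower and 4250680 ± 1112010 at the higher concentration. The control overlapped with both treated groups, while the 10 µM samples lay below the 5 µM samples. The log2 difference at 5 µM was 0.21 ± 0.119 (adjusted p = 0.211, limma). IGF2R, the receptor that clears IGF2, had means of 447262, 475655 and 290915 FPKM and a log2 difference of 0.08 ± 0.106 at 5 µM (adjusted p = 0.547, limma). GRB10, an adaptor that limits insulin signalling, had -0.39 ± 0.0869 at 5 µM (adjusted p = 0.0144, limma) and -0.83 ± 0.144 at 10 µM (adjusted p = 0.0154, limma).

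Several genes gave values whose groups overlapped. The small GTPase gene DIRAS3 had 538, 1425 and 3526 FPKM in the control and 4471, 4470 and 3135 at 5 µM, a log2 difference of 1.51 ± 0.705 (adjusted p = 0.134, limma). The zinc finger gene PLAGL1 lay between 0 and 5518 FPKM, and the potassium channel gene KCNK9 between 0 and 2799. L3MBTL1, a chromatin reader, lay between 22086 and 34374 FPKM, and TRAPPC9, a trafficking complex subunit, between 231836 and 321101. ZIM2 was above 0 only in 5 µM replicate 2, at 170 FPKM.

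**Figure D5:**
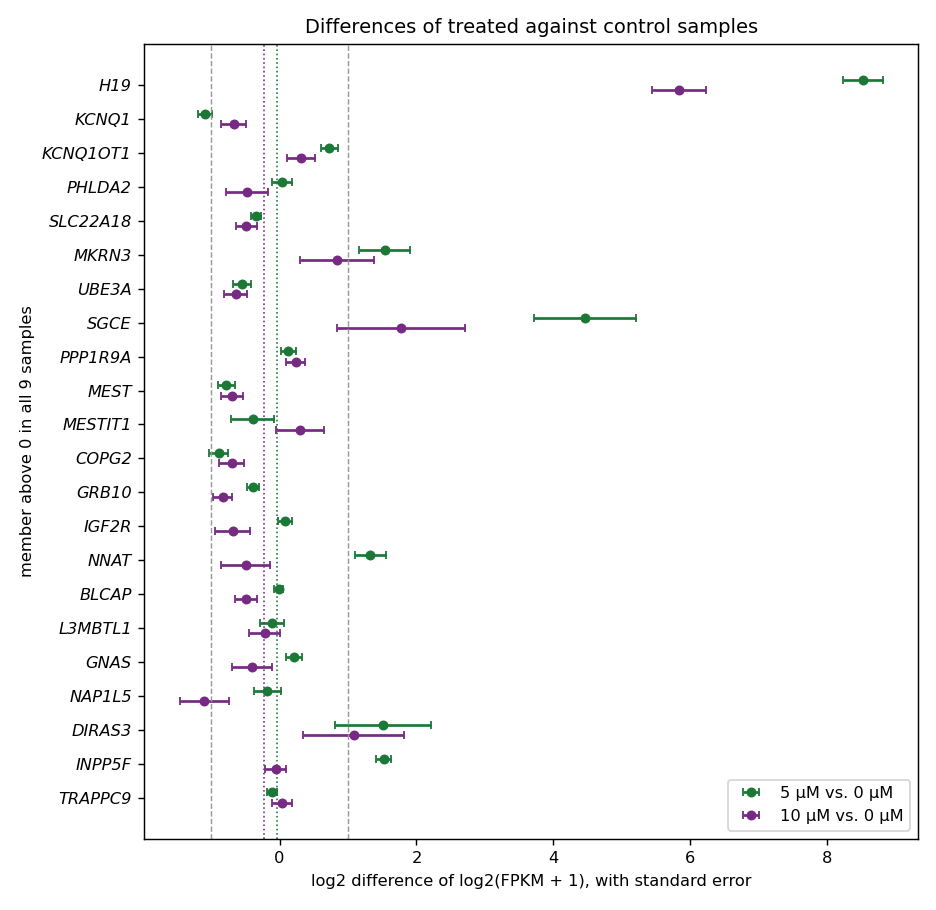
Difference from the control on the log2(FPKM + 1) scale, with its standard error, for the 22 imprinted genes above 0 in all 9 samples at 5 µM (green) and 10 µM (purple). Dashed lines mark a 2-fold difference and dotted lines the medians of -0.04 (5 µM) and -0.23 (10 µM) over all genes above 0 in the 6 samples compared. H19 stands far to the right at both concentrations, and most other points lie within the dashed lines.

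For 10 µM vs. 0 µM, which asks what the higher concentration changed, 34 imprinted genes were tested. By limma 2 were called up (5.88% of those tested), H19 and PEG10, and 0 were called down. Over all 18928 genes tested 4.07% were called up and 3.4% were called down. At an unadjusted p below 0.05 the counts among imprinted genes at more than a 2-fold difference were 2 up and 1 down. The share of all genes at this looser limit was not computed, so these counts have no background beside them. The median log2 difference was -0.01 over the 34 genes and -0.15 over all genes tested. Over all genes 771 were called up and 644 were called down, whereas median-of-ratios scaling, which moved the median of all genes to 0.08, gave 1125 and 284. Under both scalings 2 imprinted genes were called up. With the pseudocount of 1000 the counts were also 2 up and 0 down (4.54% and 3.53% of all genes). The 10 µM samples lay wholly above the control samples for 2 imprinted genes and wholly below them for 9 (14.4% and 26.7% of all genes).

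H19 was 55.4-fold higher at 10 µM than in the control (log2 difference 5.83 ± 0.394, adjusted p = 0.0021, limma), from 194, 499 and 278 fragments. PEG10 had a log2 difference of 7.91 ± 2.11 (adjusted p = 0.0468, limma), or 3.24 ± 0.376 with the pseudocount of 1000 (adjusted p = 0.00406, limma). At the pseudocount of 1 its call was lost without control replicate 2 or 3 and without any 1 of the 10 µM replicates (adjusted p between 0.0615 and 0.131). NAP1L5, an intronless gene inside HERC3, had 20537, 14180 and 18008 FPKM in the control and 5157, 8920 and 11556 at 10 µM. These groups did not overlap, but the log2 difference of -1.10 ± 0.358 did not pass the test (adjusted p = 0.0757, limma). Without 10 µM replicate 1, the sample in which both were listed at 0, FAM50B and DLK1 were called up (adjusted p = 0.042 and 0.0464, limma). INPP5F had -0.06 ± 0.15 at 10 µM, and 0.19 under median-of-ratios scaling.

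For 10 µM vs. 5 µM, which asks what the rise in concentration changed, 40 imprinted genes were tested. By limma 0 were called up and 7 were called down (17.5%). Over all 20085 genes tested 0.129% were called up and 4.82% were called down. At an unadjusted p below 0.05 and more than a 2-fold difference the counts among imprinted genes were 0 up and 10 down. The share of all genes at this limit was not computed, so the 10 cannot be read as an excess. With the pseudocount of 1000, 0 imprinted genes were called up and 7 were called down (0.144% and 5.18% of all genes). The 10 µM samples lay wholly above the 5 µM samples for 1 imprinted gene and wholly below them for 16 (4.37% and 25.3% of all genes). The median log2 difference was -0.85 over the 40 genes and -0.31 over all genes. This comparison shares its 5 µM samples with the first one, so genes called up there and down here are not counted as separate evidence.

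The 7 genes were H19, MEG3, PEG10, SGCE, HYMAI, NNAT and INPP5F. H19 at 10 µM was at 0.158 of its 5 µM level (log2 difference -2.69 ± 0.195, adjusted p = 0.00197, limma), and INPP5F was at 0.334 (-1.58 ± 0.128, adjusted p = 0.00322, limma). NNAT was at 0.298 (-1.82 ± 0.312, adjusted p = 0.0187, limma) and PEG10 at 0.186 (-2.57 ± 0.402, adjusted p = 0.0136, limma). SGCE was at 0.172 (-2.70 ± 0.554, adjusted p = 0.0352, limma), and MEG3 and HYMAI were listed at 0 in all 3 samples at 10 µM. Leaving out any 1 of the 5 µM replicates left 3 genes called, H19, MEG3 and INPP5F, and lost PEG10, SGCE, HYMAI and NNAT (adjusted p between 0.0581 and 0.175). FAM50B, at -7.07 ± 2.66, was not called (adjusted p = 0.166, limma), but was with the pseudocount of 1000 (-3.20 ± 0.456, adjusted p = 0.00734, limma). Without 10 µM replicate 2 IGF2R was called down (log2 difference -1.01, adjusted p = 0.0275, limma), and PEG3 was too.

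Of 17 genes that set or keep imprints, 14 were tested at 5 µM, and 4 were called up and 0 down by limma, against 14.1% and 2.17% of all genes. With the pseudocount of 1000, 3 were called up. KHDC3L was not analysed here, and DPPA3 was listed at 0 in all 9 samples. UHRF1, which brings DNMT1 to newly copied DNA, had 18816, 17703 and 17139 FPKM in the control, 35403, 38236 and 42478 at 5 µM and, at 10 µM, 31236, 44516 and 35820. The treated groups overlapped with each other and not with the control, with log2 differences of 1.11 ± 0.12 and 1.04 ± 0.201 (adjusted p = 0.000995 and 0.0207, limma). The de novo methyltransferase DNMT3B was called up at 5 µM (log2 difference 1.35 ± 0.339, adjusted p = 0.0221, limma).

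ZFP57 and CTCFL, the germ line relative of CTCF, were listed at 0 in the control. ZFP57 had 765, 3422 and 1788 FPKM at 5 µM, from 4, 17 and 10 fragments, and 0, 0 and 541 at 10 µM. CTCFL had 489, 617 and 1005 FPKM at 5 µM, from 5, 6 and 11 fragments, and was listed at 0 at 10 µM. Both were called up at 5 µM with few fragments (adjusted p = 0.000713 and 0.000962, limma). With the pseudocount of 1000 ZFP57 was still called (log2 difference 1.48) and CTCFL was not (0.76). DNMT1 had 118668, 120542 and 105662 FPKM in the control and 125705, 124596 and 137102 at 5 µM, a log2 difference of 0.17 ± 0.0822 (adjusted p = 0.146, limma). HELLS, a chromatin remodeler, was called up at 10 µM against the control (1.68 ± 0.201, adjusted p = 0.00592, limma) and against 5 µM (1.03 ± 0.167, adjusted p = 0.0152, limma). TRIM28, the partner of ZFP57, had -0.64 ± 0.0814 at 5 µM, within 2-fold (adjusted p = 0.00168, limma).

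Of 6 fibroblast markers 4 were called up at 5 µM, where 14.1% of all genes were, and 3 with the pseudocount of 1000, which lost COL1A2 (log2 difference 0.70). The summed FPKM of the list lay between 22550 and 32350 in the control, between 82210 and 88740 at 5 µM and between 44800 and 52150 at 10 µM. LUM and COL1A1 gave nearly all of this sum, and DCN was listed at 0 in 7 of 9 samples. Of 4 blood cell markers 1 was called up, CD3E, and was not with the pseudocount of 1000 (log2 difference 0.85). The summed FPKM lay between 36280 and 48160 in the control, 36530 and 44700 at 5 µM and 40360 and 50380 at 10 µM. PTPRC, which marks white blood cells, did not exceed 983 FPKM. Of the 10 colon epithelium markers the keratins KRT8, KRT18 and KRT19 were called down at 5 µM (log2 differences -1.65, -1.64 and -1.79) and CDX1 was called up (2.14). Over all genes 2.17% were called down and 14.1% up. At 10 µM against the control KRT19, KRT20 and CDX2 were called down (-1.54, -1.31 and -1.38), against 3.4% of all genes. KRT8, KRT18 and CDX1 were not called there (-1.53, -1.46 and -0.17). The part of these genes in the values of the imprinted genes was not tested.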

How the data were processed

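RNA of 9 HT-29 cultures (3 per group at 0, 5 and 10 µM 5-Aza, groups and replicate numbers per the labels) was sequenced with paired ends. The deposited FPKM values were computed by the authors with Cufflinks, after a read filter (FASTX-Toolkit) and alignment by TopHat to hg19. The library term and the annotation are not given in the sources used here. Each file has 24934 entries, and the values of 543 symbols on more than 1 entry, none of them an imprinted gene of the list, were summed.

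The imprinted genes and the other lists were chosen with earlier results of these data known. Genes reaching 10 FPKM in 1 of the 6 samples compared were tested on log2(FPKM + 1) with limma 3.58.1 (R 4.3.3, lmFit and eBayes with trend), and p-values were adjusted by Benjamini-Hochberg over all genes tested. Calls needed an adjusted p of at most 0.05 and an absolute log2 difference above 1. Per-sample values are given for imprinted genes called in any comparison and for some of those most often named in textbooks, the others mostly as means or ranges. Numbers of genes above 0 were compared by exact two-sided permutation tests. A total of 13 alternative fits per comparison covered the pseudocount, filters, scaling, the samples fitted, repeated symbols, the replicate block and each replicate left out. The fit was tested on simulated data with changes planted only in genes resting on many fragments. Recovery of changes in genes listed at 0 in the control or resting on few fragments was therefore not tested. The study gives a range of reads per sample but the files hold no total for each library, so the precision of a value is shown by replicate spread and, for 12 imprinted genes, by whole fragments.

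Gene positions are those of GRCh37 (GENCODE) and promoter windows those of RefSeq on GRCh38.p14, and the builds were not mixed. Tables and figures used numpy 2.4.6, pandas 2.3.3 and matplotlib 3.10.9. Overlapping genes and genes on opposite strands share reads in libraries without strand.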

Additional observations from a re-analysis of the deposited data

How the results depend on the processing

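Log2 differences under the alternatives were counted for the imprinted genes called in any comparison with the pseudocount of 1, and for MEST, KCNQ1OT1, GNAS and IGF2R. Of these values 629 kept the direction and the side of the threshold, 41 lost the call, 6 gained one and 4 changed direction. Calls that NLRP2, DIRAS3, SNURF, ATP10A, COPG2 and NAP1L5 gained under some alternatives are not in these counts. The 4 were IGF2R for 5 µM vs. 0 µM without 5 µM replicate 3 (-0.027), INPP5F for 10 µM vs. 0 µM with median-of-ratios scaling (0.19), and MEST for 10 µM vs. 5 µM without 5 µM replicate 1 (-0.02) and without 10 µM replicate 2 (-0.073), none of them called in those comparisons. Leaving out 1 replicate, the IGF2R value ranged from -0.027 to 0.14 and the MEST value from -0.073 to 0.21. With a limit of 1000 FPKM the difference in the number of imprinted genes at or above it was 6.67 for 5 µM vs. 0 µM and -3.67 for 10 µM vs. 5 µM. These were 11 and -7 with the limit of 0. For 10 µM vs. 0 µM the difference was 3 in place of 4.

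For 5 µM vs. 0 µM, leaving out 1 replicate gave 11 to 14 genes called up and 1 or 2 called down. For 10 µM vs. 0 µM it gave 1 to 3 called up, while the fit without a filter gave 1 called up, since PEG10 was lost (adjusted p = 0.0712, limma), and the fit of all 9 samples gave 1 called down, NAP1L5. For 10 µM vs. 5 µM, leaving out 1 replicate gave 3 to 9 called down, the fit of all 9 samples gave 5, without PEG10 (adjusted p = 0.411, limma) and SGCE (0.0702), and median-of-ratios scaling gave 6, without SGCE. The cause was not tested.

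Samples of the same replicate number did not deviate together (correlations of -0.07 to 0.09 over 9 pairs, against -0.16 to 0.10 over 18 pairs of different numbers), so the numbers were not taken to pair the samples. With the replicate block 11 imprinted genes were called up and 1 down for 5 µM vs. 0 µM, 2 up and 0 down for 10 µM vs. 0 µM, and 0 up and 5 down for 10 µM vs. 5 µM. The block lost MEG3 and MKRN3 in the first comparison (adjusted p = 0.0558 and 0.0578, limma) and SGCE and HYMAI in the last (0.0754 and 0.0959). The fit of all 9 samples also lost MKRN3 (just above 0.05). Over all genes the block gave 2553 up and 414 down, 627 and 567, and 11 and 407.

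The test on log2 values does not weigh genes by counting error, which limits those resting on few fragments, such as RTL1, HYMAI, KLF14 and KCNK9. FPKM per gene separates neither parental copies nor isoforms.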
